A study of Homo sapiens with 12 samples.

Results

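Interferon-stimulated genes were followed in the RNA of a human lens epithelial line with and without the autophagy gene ATG7. A set of 39 genes was taken by name from the 58735 genes of the deposited tables, and each name matched 1 row. The set holds the ligand IFNB1, 6 transcription factors, 5 RNA sensors and their helpers, and the antiviral effectors that these factors switch on. The cells were HLE-B3, an immortalized line from human lens epithelium (lens epithelial cells, LECs), sequenced as 4 groups of 3 libraries each. These were wild-type (WT) cells without treatment (0 h), WT cells after 12 h with 200 μM H2O2, and ATG7 knockout (KO) cells at the same 2 points. The ATG7 KO line was made with CRISPR/Cas9 and individual clones were picked, but the labels do not say which clone was sequenced, so the knockout and the history of a clone cannot be told apart. The labels name untreated cells 0 h and treated cells 12 h and do not say when untreated cells were harvested, so H2O2 and any difference in time in culture cannot be told apart. The paper describes the 3 replicates of each group as biological. The labels give replicate numbers without saying how the cultures were separated. How far the spread between these libraries, which the p-values measure, is technical therefore cannot be told.

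A type I interferon such as interferon beta binds its receptor at the cell surface and activates the kinases JAK1 and TYK2. STAT2 is then phosphorylated and joins IRF9 in the complex ISGF3, which binds the interferon-stimulated response element (ISRE) in promoters. Interferon gamma acts through the gamma-activated site (GAS), and IRF1 can bind the same kind of sequence as ISGF3. In most cells many of these genes keep a low level without any interferon.

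Libraries held 15602183 to 17659496 reads on genes. The library of untreated ATG7 KO replicate 1 stood apart. Its mean correlation with the other libraries of its group was 0.976 on a log2 scale, where every library of the other 3 groups had 0.996. Counts of called members that use the untreated ATG7 KO group are therefore given with all 3 libraries and again without that library. The same was done for the values of some genes, and other values rest on all 3 libraries. The mRNA of ATG7 itself was not lower in the KO line. Its level was 2.81, 2.64 and 2.21 FPKM (fragments per kilobase of gene, scaled to library size) in untreated WT cells and 3.78, 3.42 and 3.43 FPKM in untreated ATG7 KO cells, so RNA does not check the knockout here. Of 8 lens epithelium markers 3 had a mean above 1 FPKM in some group, and the other 5 had at most 10 reads in any library. KRT8 and KRT18, keratins of simple epithelia, were the members above 1 FPKM among 4 epithelial markers. None of 3 endothelial and 2 of 6 immune markers passed 1 FPKM. The summed immune list lay at 1.91 to 2.55 FPKM in untreated WT and 1.77 to 2.49 FPKM in untreated ATG7 KO cells, and at 2.21 to 2.72 FPKM in treated WT and 0.948 to 1.55 FPKM in treated ATG7 KO cells. In treated cells CD14 (log2 fold change -1.14) and ITGAM (-0.71) of that list were lower in the KO line. The near-equal untreated sums cover markers that moved in opposite directions. There LYZ (-3.54, edgeR adjusted p = 0.0076) and PTPRC (-1.69) lay lower in the KO line, and CD14 (1.26) and ITGAM (1.67) higher. Of these, LYZ alone had an adjusted p below 0.01. The summed endothelial list lay at 0.126 to 0.252 FPKM in untreated WT and 0.515 to 0.566 FPKM in untreated ATG7 KO cells, where PECAM1 was higher (3.20), and at 0.178 to 0.267 and 0.167 to 0.215 FPKM in the treated lines. The part of other cell types in the results was not tested.

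Many promoters of the family, but not all, held a match to the ISRE. RefSeq promoters of GRCh38.p14, from 250 bases before to 50 bases after the start of a gene, were given for 30 of the 39 genes. They were searched on both strands for the ISRE letters (GAAA and GAAA with any 2 bases between them, read as TTTC and TTTC on the other strand) and the GAS letters TTCNNNGAA, which read alike on both strands. An ISRE match was present in 19 of the 30 (63.3%), against 3.57% of all 35116 promoters. A GAS match was present in 9 of the 30 (30.0%), against 7.66% of all promoters. Of 35 ISRE matches in the family, 4 overlapped a GAS match. The sequences below belong to genes on which the results turn, each written 5′ to 3′ on the strand of its gene, with the match in capitals. Positions count the first base of the match from the RefSeq start of the gene.

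IFIT1, ISRE at -116, chr10:89392482-89392541 (+): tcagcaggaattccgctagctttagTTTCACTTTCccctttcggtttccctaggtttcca
IFIT3, ISRE at -156, chr10:89327816-89327875 (+): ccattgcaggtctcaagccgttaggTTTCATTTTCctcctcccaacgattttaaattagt
SAMD9, ISRE at -136, chr7:93118081-93118140 (-): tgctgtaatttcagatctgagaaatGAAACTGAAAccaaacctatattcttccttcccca
DDX60, ISRE at -88, chr4:168318821-168318850 (-): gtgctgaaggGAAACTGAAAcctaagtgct
ISG15, ISRE at -107, chr1:1013380-1013409 (+): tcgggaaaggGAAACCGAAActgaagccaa
IFI44, ISRE at -18, chr1:78649746-78649788 (+): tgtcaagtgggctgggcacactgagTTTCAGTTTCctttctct
IFI44L, ISRE at -164, chr1:78620274-78620303 (+): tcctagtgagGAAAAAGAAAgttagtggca
IFI44L, ISRE at -73, chr1:78620365-78620394 (+): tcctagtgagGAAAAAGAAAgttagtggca
IRF1, GAS at -124, chr5:132490864-132490922 (-): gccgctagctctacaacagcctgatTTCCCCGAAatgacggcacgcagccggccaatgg

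A further IFIT3 match at -122 has the same letters as the IFIT1 match, SAMD9 and DDX60 share the same letters on their own strand, and the IFI44L promoter holds the same 30 bases at both places. A match to these letters is a description and does not show binding. The genes below moved in different directions although they hold such matches.

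The family was present at a low to moderate level in these cells. A mean above 1 FPKM in some group was reached by 27 of the 39 genes, and 23 had it in all 4 groups. The membrane protein IFITM3, which hinders virus entry, had the highest level, at 40.1 to 66.4 FPKM. Another 12 genes stayed at or below a mean of 1 FPKM in every group, among them the effectors MX1, MX2, OAS1, OAS2, OASL, RSAD2 and IFI27. RSAD2, which encodes viperin, had no read in any of the 12 libraries. At these depths 3 reads, the limit that a count of 0 allows, correspond to 0.170 to 0.192 CPM (counts scaled to library size).

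IFNB1, the gene of interferon beta, had no read in the 9 libraries of the other groups and 1, 6 and 2 reads in WT cells with H2O2. These counts did not pass the filter for testing. The treated WT libraries also had reads on more genes, 26542 to 27504, against 22297 to 24774 in libraries of the other groups. Whether the IFNB1 reads go with that wider detection was not tested. Among 20 further ligand genes IFNE was the only one tested. Of those not tested, IFNA5 also had reads in treated WT cells only (7, 2 and 4). Others did not share this, such as IFNK with 0, 7 and 2 reads in treated ATG7 KO cells. IFNE, an interferon known from epithelia of the reproductive tract, fell in WT cells with H2O2 (log2 fold change -1.02 ± 0.20 SE, edgeR adjusted p = 1.4e-05).

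The family was first compared between ATG7 KO and WT cells under H2O2, the condition in which the study looked for effects of autophagy on stressed LECs. Of the 39 genes 17 were higher in ATG7 KO cells, 5 were lower, 11 did not pass the test and 6 had too few reads to be tested. Called genes are those with a Benjamini-Hochberg adjusted p below 0.01 in the edgeR quasi-likelihood test over all genes. In this comparison 55.6% of all tested genes were called, 27.7% higher and 27.9% lower, so a call alone is common. The median log2 fold change of the 33 tested members was 0.36, and that of all tested genes was -0.0022. When a log2 fold change beyond 1 and a mean above 1 FPKM in a group were also required, 3 members (IFI44L, IFI44 and DDX60) and 7.46% of all tested genes remained. Libraries of the 2 lines did not overlap for 27 members, against 68.0% of all tested genes. Since this is bulk RNA, fewer cells expressing a gene and less RNA per cell cannot be told apart. Of 17 tested members with an ISRE match 10 were higher and 1 was lower, and of 8 tested members whose promoter had none 4 were higher and 3 lower.

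IFI44L, an interferon-induced gene that dampens antiviral responses, differed most. Its level was 0.115, 0.178 and 0.199 FPKM in treated WT cells and 2.02, 1.84 and 2.04 FPKM in treated ATG7 KO cells. Every ATG7 KO library was above every WT library, and IFI44L was 11.9-fold higher (log2 fold change 3.58 ± 0.15 SE, edgeR adjusted p = 3.1e-19). IFI44, its neighbour on chromosome 1, had 3.47, 2.45 and 2.97 FPKM in treated WT cells and 10.0, 8.90 and 9.31 FPKM in treated ATG7 KO cells. That is 3.14-fold higher in the KO line (log2 fold change 1.65 ± 0.12 SE, edgeR adjusted p = 1.8e-13), with no overlap between the groups. Around IFI44L the 20 nearest tested genes were centred on 0.04 (median, log2), and 11 of them lay above 0.

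Among RNA sensors and their helpers 3 of 5 were higher in treated ATG7 KO cells and 1 was lower. In this comparison 55.6% of all tested genes were called. DDX60, a helicase that assists RIG-I, had 1.29, 1.09 and 1.74 FPKM in treated WT and 2.86, 3.01 and 3.22 FPKM in treated ATG7 KO cells, without overlap (log2 fold change 1.13 ± 0.12 SE, edgeR adjusted p = 3.5e-09). EIF2AK2, the kinase PKR that is activated by double-stranded RNA, was higher (log2 fold change 0.55), and so was DDX58, which encodes RIG-I itself (0.36). TRIM25, the ubiquitin ligase that modifies RIG-I, was slightly lower (-0.20). IFIH1, which encodes the sensor MDA5, did not pass the test, with 1.86 ± 0.012 FPKM (SD, n = 3) in treated WT and 2.12 ± 0.095 FPKM in treated ATG7 KO cells.

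The transcription factors moved in both directions. IRF1 was lower in treated ATG7 KO cells, at 6.53, 6.51 and 7.13 FPKM against 12.7, 13.6 and 11.2 FPKM in treated WT cells (log2 fold change -0.90 ± 0.06 SE, edgeR adjusted p = 1.0e-13). STAT2 and IRF9, both subunits of ISGF3, were higher, with log2 fold changes of 0.66 ± 0.10 and 1.16 ± 0.32 (SE), and IRF2, a factor that can oppose IRF1, was higher by 0.62 ± 0.07. IRF9 rested on 9 to 51 reads a library, and its call was lost under 5 alternatives. Of its 20 nearest tested genes 17 were above 0 as well, with a median log2 fold change of 0.39, whereas around IRF1 the median was 0.44, opposite in sign to IRF1 itself. IRF3 and IRF7 did not pass the test.

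SAMD9 and SAMD9L, adjacent genes for cytoplasmic factors that restrict poxviruses, were both higher in treated ATG7 KO cells. SAMD9 had 4.21, 4.28 and 5.31 FPKM in treated WT and 8.09, 7.99 and 7.92 FPKM in treated ATG7 KO cells, without overlap (log2 fold change 0.79 ± 0.07 SE, edgeR adjusted p = 2.5e-11). SAMD9L was higher by 0.64 ± 0.12 (log2, SE). Their neighbourhood moved a little in the same direction, since 16 of the 20 genes nearest to SAMD9 were above 0, with a median of 0.25.

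All 3 tested genes of the OAS family were higher in treated ATG7 KO cells, where 27.7% of all tested genes were higher. OAS2 and OAS3 encode synthases of the second messenger that activates RNase L. OAS3 had 4.68, 5.04 and 5.06 FPKM in treated WT and 7.66, 7.44 and 8.12 FPKM in treated ATG7 KO cells (log2 fold change 0.65 ± 0.06 SE). OAS2 was low in both lines, at 0.193 ± 0.055 FPKM in treated WT and 0.560 ± 0.074 FPKM in treated ATG7 KO cells (SD, n = 3), and OASL had 6, 5 and 4 reads in treated WT against 15, 11 and 18 in treated ATG7 KO cells. The OASL call was lost under 8 alternatives, among them DESeq2, where its adjusted p was 0.030, and the adjusted p ranged from 0.0033 to 0.038 over all of them. OAS1, with at most 13 reads in a library, was not tested. Of the IFIT family, whose proteins bind the ends of foreign RNA, IFIT3 alone passed the test, higher by 0.64 ± 0.09 (log2, SE), and the log2 fold changes of the whole family ran from -0.14 to 0.64.

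Members that act at membranes did not share this direction. IFITM2 was lower in treated ATG7 KO cells (log2 fold change -0.73 ± 0.11 SE) and IFITM3 was lower (-0.33 ± 0.05). The related IFITM1 had 0.945 ± 0.23 FPKM in treated WT and 0.491 ± 0.052 FPKM in treated ATG7 KO cells without passing the test. BST2, which encodes tetherin, had too few reads to be tested. The IFITM genes lie together on chromosome 11 and are closely alike in sequence, so reads may have been divided unevenly among them. IFI35, a partner of the protein NMI, had 10.5, 8.82 and 9.16 FPKM in treated WT and 5.09, 5.99 and 5.90 FPKM in treated ATG7 KO cells (log2 fold change -0.75 ± 0.10 SE, edgeR adjusted p = 2.1e-07). Of the 20 tested genes nearest to IFI35 on chromosome 17, 19 were also below 0, with a median of -0.42. ISG15, a ubiquitin-like protein that is attached to other proteins, and IFI6, an inhibitor of apoptosis, were modestly higher, by 0.37 ± 0.09 and 0.37 ± 0.12 (log2, SE). The IFI6 call was lost under 7 alternatives, among them DESeq2 and both limma fits, with an adjusted p from 0.00019 to 0.30 over all of them.

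**Figure D1:**
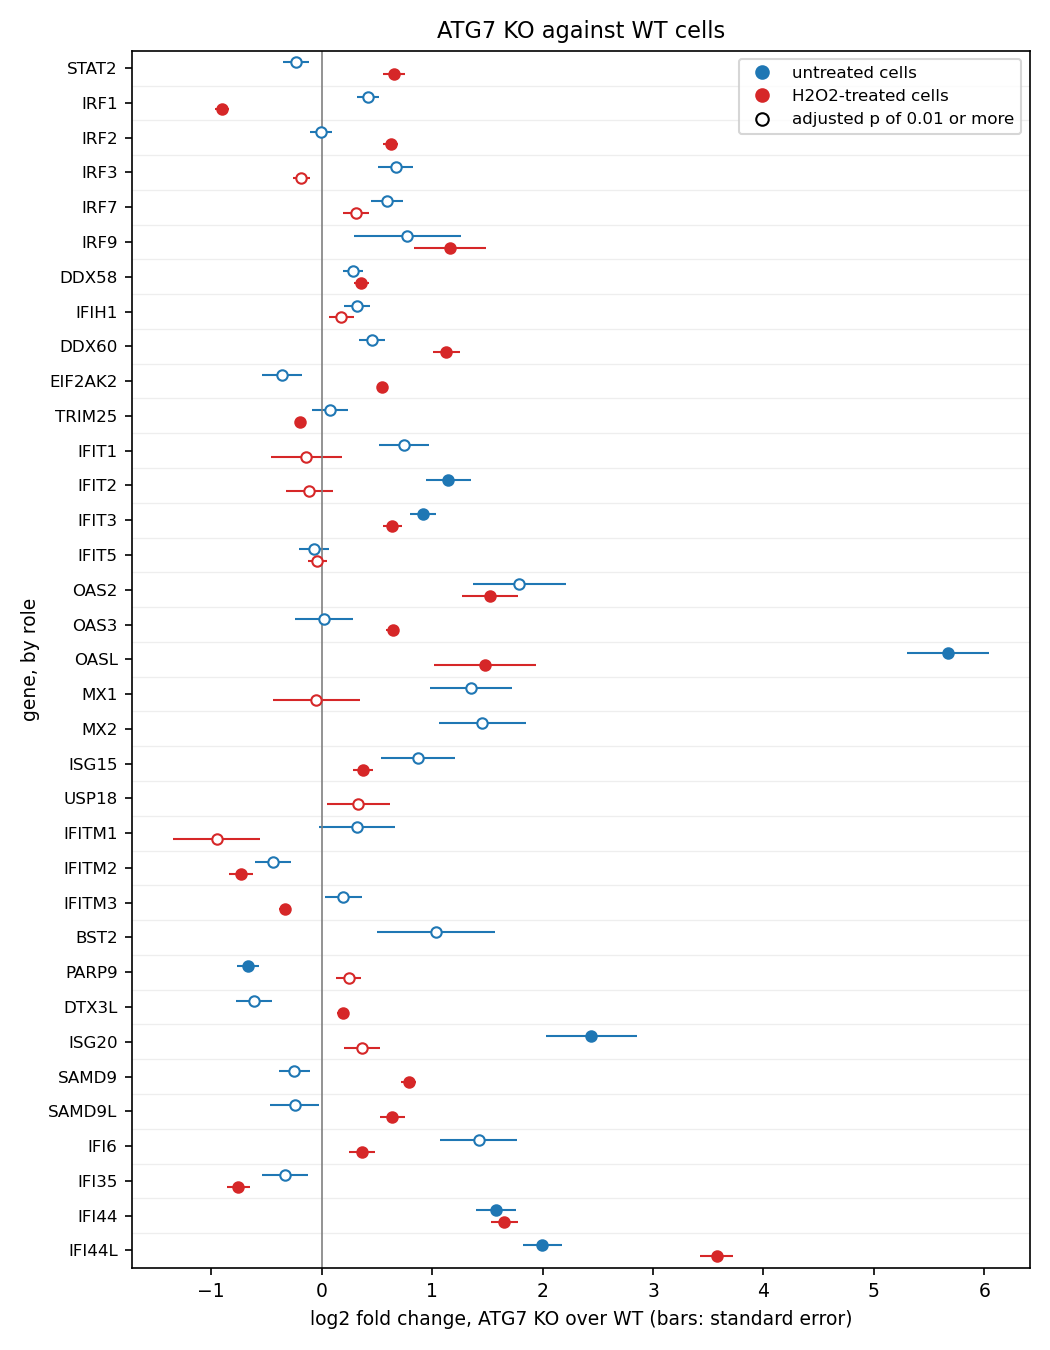
Log2 fold change of ATG7 KO over WT cells for every tested member (rows, by role) in untreated (blue) and H2O2-treated cells (red), with bars giving the standard error and open circles an adjusted p of 0.01 or more. IFI44L and IFI44 lie above 1 in both conditions, IRF1 and IFI35 are called on the lower side with H2O2, and OASL has the highest untreated value, 5.67, from a WT level of 1 read a library.

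Without H2O2 fewer members were called. Of the 39 genes 6 were higher and 1 was lower in ATG7 KO cells, 27 did not pass the test and 5 were not tested, where 7.70% of all tested genes were called (4.42% higher, 3.28% lower). Without the library that stood apart, 15 members were higher and 5 lower, where 36.2% of all tested genes were called (18.2% higher, 17.9% lower). The median log2 fold change of the tested members was 0.44, and that of all tested genes was 0.0055. The thresholds on fold change and level left 3 members (IFI44L, IFI44 and IFIT2) and 3.50% of all tested genes, and 24 members against 45.3% of all tested genes did not overlap between the lines.

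IFI44L was again among the higher genes, at 0.516, 0.616 and 0.396 FPKM in untreated WT and 2.18, 1.98 and 1.96 FPKM in untreated ATG7 KO cells, 4.0-fold higher without overlap (log2 fold change 2.0 ± 0.17 SE, edgeR adjusted p = 0.00058). Without replicate 1 of the KO group the value was 1.95. IFI44 was 2.99-fold higher, at 3.83, 3.01 and 3.48 FPKM in WT and 12.9, 8.81 and 9.22 FPKM in ATG7 KO cells (log2 fold change 1.58 ± 0.18 SE, 1.40 without replicate 1). Both genes thus differed between the lines before any H2O2 was added.

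Within the IFIT family IFIT2 and IFIT3 were higher in untreated ATG7 KO cells, by 1.15 ± 0.21 and 0.92 ± 0.12 (log2, SE). Without replicate 1 IFIT2 had 0.97, which is not beyond the threshold of 1, and IFIT3 had 0.89. IFIT2 had 0.616, 0.650 and 0.741 FPKM in WT and 1.86, 1.37 and 1.24 FPKM in ATG7 KO cells. IFIT3 had 3.04, 3.34 and 3.20 FPKM in WT and 6.38, 5.61 and 6.18 FPKM in ATG7 KO cells. Neither gene's groups overlapped. IFIT1 had a value of 0.74 ± 0.23 that did not pass the test (edgeR adjusted p = 0.061), also without replicate 1 (0.031), and IFIT5 overlapped between the lines. The neighbours of IFIT3 had a median log2 fold change of -0.02.

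OASL stood out by ratio but not by level. It had 1, 1 and 1 read in untreated WT and 46, 54 and 70 reads in untreated ATG7 KO cells, and the pooled ratio of 170 to 3 reads was 56.9, with an exact 95% interval of 19.1 to 279 that covers counting error only. Even so its mean was 0.910 ± 0.15 FPKM (SD, n = 3) in the KO line. ISG20, an exonuclease that degrades RNA, was also called (log2 fold change 2.44 ± 0.41 SE, 1.93 without replicate 1), at 0.156, 0.214 and 0.153 FPKM in WT and 1.55, 0.724 and 0.609 FPKM in ATG7 KO cells.

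PARP9 was the only member called lower before treatment. It had 2.50, 2.62 and 2.64 FPKM in untreated WT and 1.57, 1.70 and 1.62 FPKM in untreated ATG7 KO cells (log2 fold change -0.67 ± 0.10 SE, edgeR adjusted p = 0.0046, -0.64 without replicate 1). DTX3L, whose product forms a complex with PARP9 and whose gene lies beside it, had -0.61 ± 0.16 (edgeR adjusted p = 0.041) and -0.46 without replicate 1, where it was called. Around both genes on chromosome 3, 19 of the 20 nearest tested genes were below 0 as well, with medians of -0.67 for PARP9 and -0.70 for DTX3L.

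Among the untreated calls those of IFI44L and OASL held under every alternative. IFIT2 lost its call under 8 of them, ISG20 and PARP9 under 7, IFIT3 under 5 and IFI44 under 3.

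Several abundant members depended on the library that stood apart. ISG15 had 7.99, 6.99 and 8.14 FPKM in untreated WT and 22.7, 9.54 and 10.2 FPKM in untreated ATG7 KO cells, so the fitted difference went from 0.87 with all libraries to 0.36 (log2) without replicate 1, and neither value was called. IFI6 had 35.5, 15.1 and 15.2 FPKM in untreated ATG7 KO cells against 7.50, 9.11 and 7.75 FPKM in WT cells. Its difference was 1.42 ± 0.35 (edgeR adjusted p = 0.031) with all libraries and 0.90 ± 0.14 (edgeR adjusted p = 2.2e-09) without replicate 1.

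**Figure D2:**
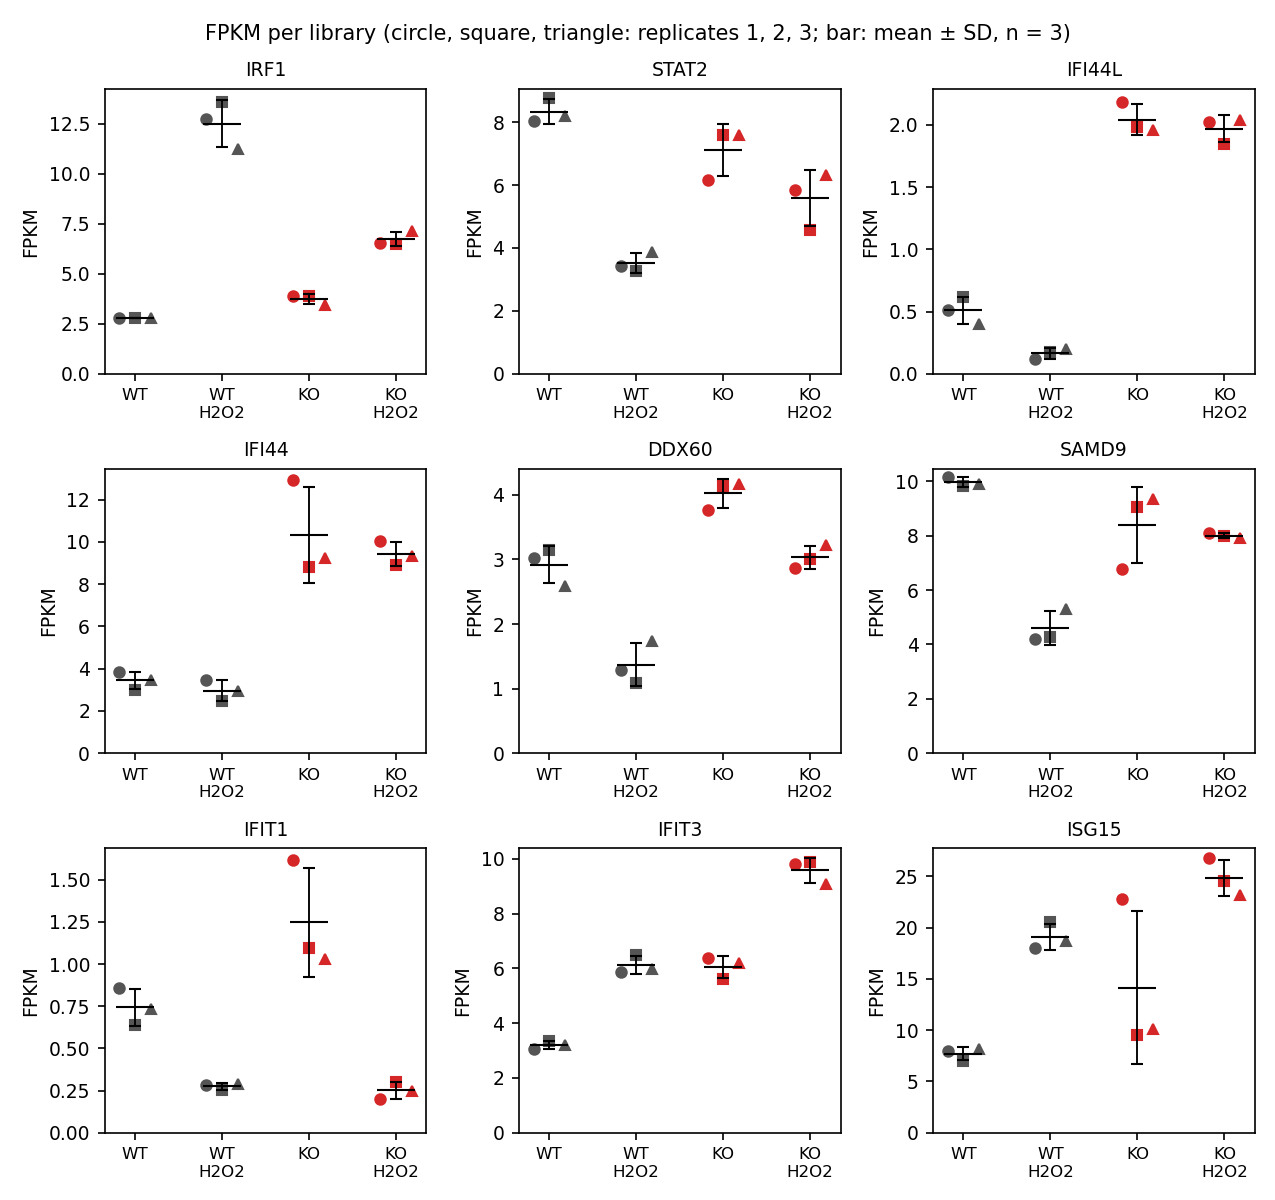
FPKM of 9 members in each library, with WT in gray, ATG7 KO in red, markers for replicates 1 to 3 and bars for mean ± SD (n = 3). IFI44L and IFI44 separate the lines in both conditions, STAT2, DDX60 and SAMD9 drop in WT cells with H2O2, IFIT1 drops in both lines, and replicate 1 of untreated ATG7 KO cells lies apart for ISG15.

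The response to H2O2 was then examined within each line. In WT cells 8 members rose, 11 fell, 12 did not pass the test and 8 were not tested, where 61.0% of all tested genes were called (30.9% higher, 30.1% lower). The members had a median log2 fold change of -0.06, against -0.0053 for all tested genes, so the family as a whole did not move one way. The additional thresholds on fold change and level left 6 members (IRF1, ISG15, STAT2, PARP9, SAMD9 and DDX60) and 12.5% of all tested genes. Treated and untreated libraries did not overlap for 22 members, against 71.4% of all tested genes.

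IRF1 rose most among the members above 1 FPKM. It went from 2.80, 2.78 and 2.79 FPKM to 12.7, 13.6 and 11.2 FPKM, a 4.46-fold rise (log2 fold change 2.16 ± 0.07 SE, edgeR adjusted p = 5.6e-31). ISG15 rose 2.46-fold, from 7.99, 6.99 and 8.14 FPKM to 18, 20.5 and 18.7 FPKM (log2 fold change 1.30 ± 0.11 SE, edgeR adjusted p = 5.1e-14). USP18, the protease that removes ISG15 from proteins, rose as well (1.42 ± 0.38), at 0.246 ± 0.071 FPKM before and 0.664 ± 0.072 FPKM after treatment (SD, n = 3). The other rising members were IFIT3 (0.93), IFI6 (0.67), IFITM3 (0.19), ISG20 (1.97) and OAS2 (2.08). The IFITM3 call was lost under 8 alternatives.

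The falling members include STAT2, a subunit of ISGF3, and 4 of the 5 RNA sensors and their helpers. DDX58 of that list did not pass the test, and of all tested genes 30.1% fell. STAT2 fell 2.37-fold, from 8.05, 8.77 and 8.18 FPKM to 3.43, 3.26 and 3.88 FPKM (log2 fold change -1.24 ± 0.07 SE, edgeR adjusted p = 4.7e-20). SAMD9 fell 2.17-fold, from 10.2, 9.83 and 9.91 FPKM to 4.21, 4.28 and 5.31 FPKM (log2 fold change -1.12 ± 0.07 SE). PARP9 fell from 2.50, 2.62 and 2.64 FPKM to 1.07, 1.16 and 1.32 FPKM (-1.13 ± 0.10), and DDX60 fell from 3.03, 3.14 and 2.59 FPKM to 1.29, 1.09 and 1.74 FPKM (-1.09 ± 0.12). In each of these genes all treated libraries lay below all untreated ones. EIF2AK2 (-0.67), IFIH1 (-0.48), TRIM25 (-0.27), SAMD9L (-0.70), IFI35 (-0.29), IFIT1 (-1.43) and IFI44L (-1.64) completed the group. The IFI35 call was lost under 8 alternatives and the TRIM25 call under 2.

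Genes of the same family therefore parted in WT cells. IFIT1 and IFIT3 lie in one cluster on chromosome 10 and share the letters of one ISRE match, but IFIT1 fell while IFIT3 rose. IFIT1 went from 0.858, 0.636 and 0.732 FPKM to 0.281, 0.253 and 0.290 FPKM, and IFIT3 from 3.04, 3.34 and 3.20 FPKM to 5.87, 6.50 and 5.99 FPKM. Among the 19 members with an ISRE match 16 were tested, of which 5 rose and 6 fell. Of 8 tested members whose promoter had none 1 rose and 5 fell, and of all tested genes 30.9% rose and 30.1% fell.

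In ATG7 KO cells 6 members rose, 4 fell, 25 did not pass the test and 4 were not tested, where 26.0% of all tested genes were called (13.6% higher, 12.4% lower). Without replicate 1 of the untreated KO group 8 rose and 11 fell, where 58.4% of all tested genes were called (29.8% higher, 28.6% lower). The median of the tested members was -0.14, against -0.03 for all tested genes. Libraries did not overlap for 22 members, against 59.6% of all tested genes, and IFIT1 alone passed the thresholds on fold change and level, which 11.2% of all tested genes passed. IFIT3, IRF1, OAS2 and USP18 rose in both lines, and IFIH1 and IFIT1 fell in both. No member was called in opposite directions in the 2 lines.

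IFIT1 fell 4.94-fold in ATG7 KO cells, from 1.62, 1.09 and 1.03 FPKM to 0.203, 0.304 and 0.250 FPKM (log2 fold change -2.30 ± 0.26 SE, edgeR adjusted p = 0.00063, -2.08 without replicate 1). IRF1 rose 1.79-fold, from 3.87, 3.89 and 3.45 FPKM to 6.53, 6.51 and 7.13 FPKM (0.84 ± 0.09, edgeR adjusted p = 0.00056, 0.86 without replicate 1). IRF3, the factor that first switches on IFNB1, fell from 14.3, 10.6 and 9.48 FPKM to 6.03, 6.29 and 6.64 FPKM (-0.86 ± 0.16, edgeR adjusted p = 0.0047, -0.68 without replicate 1). Of the 20 tested genes nearest to IRF3 on chromosome 19, 18 were below 0 too, with a median of -0.69.

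DTX3L rose from 5.20, 7.74 and 6.66 FPKM to 10.9, 11.3 and 10.4 FPKM in ATG7 KO cells (0.73 ± 0.15, edgeR adjusted p = 0.0083, 0.58 without replicate 1), and IRF2 rose by 0.57 ± 0.09. IFIT3 rose from 6.38, 5.61 and 6.18 FPKM to 9.80, 9.89 and 9.06 FPKM (0.66 ± 0.10, 0.69 without replicate 1). Its 20 nearest tested genes on chromosome 10 had a median of 0.64 in this comparison, with 12 above 0 and 8 below. IFIH1 fell from 3.47, 2.97 and 3.25 FPKM to 2.21, 2.15 and 2.02 FPKM (-0.61 ± 0.11, -0.56 without replicate 1). OASL fell from its raised untreated level to 15, 11 and 18 reads (-1.89 ± 0.26). ISG15 had 22.7, 9.54 and 10.2 FPKM before and 26.8, 24.5 and 23.2 FPKM after treatment, which was called without replicate 1 (1.32 ± 0.11, edgeR adjusted p = 8.9e-28) but not with it (0.81 ± 0.32, edgeR adjusted p = 0.080). The calls of IFIT1, IRF1 and OASL in ATG7 KO cells held under every alternative, and those of IRF3, DTX3L, IFIT3, IFIH1, IRF2 and USP18 were each lost under 5 and that of OAS2 under 3.

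**Figure D3:**
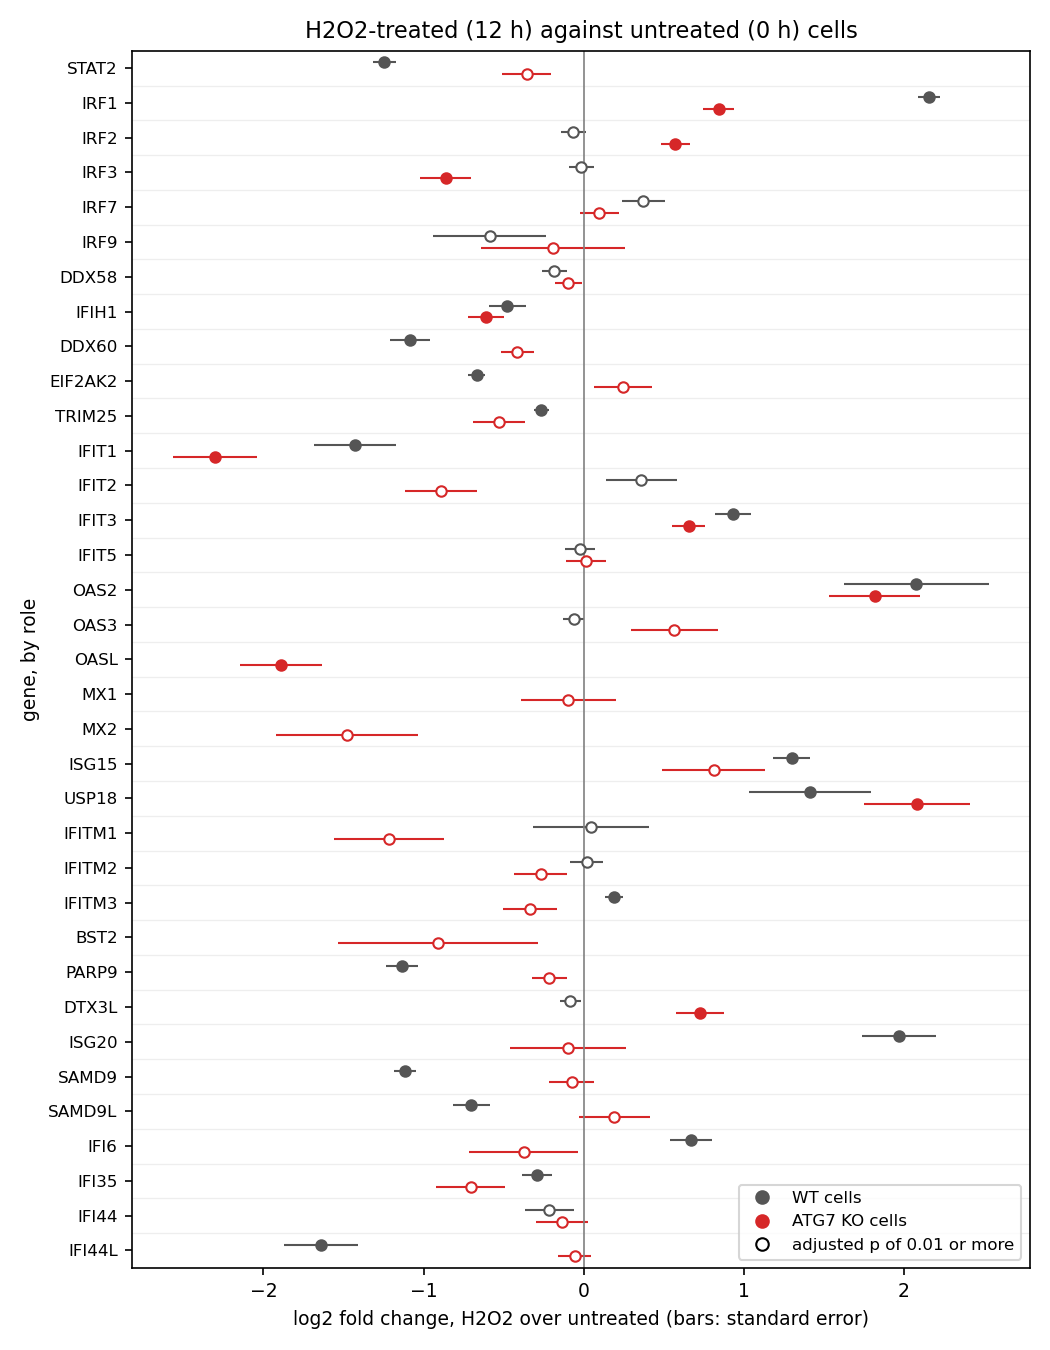
Log2 fold change of H2O2-treated (12 h) over untreated (0 h) cells for every tested member (rows, by role) in WT (gray) and ATG7 KO cells (red), with bars giving the standard error and open circles an adjusted p of 0.01 or more. STAT2, PARP9, SAMD9 and IFI44L lie far below 0 in WT cells and nearer to 0 in ATG7 KO cells, while IRF1 lies to the right in both lines and farther in WT cells.

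Whether the responses differed between the lines was tested directly, as ATG7 KO minus WT in a fit of all 12 libraries. Of the 39 genes 7 had a higher response in ATG7 KO cells, 4 had a lower one, 24 did not pass and 4 were not tested, where 14.0% of all tested genes were called (7.02% higher, 7.01% lower). Without the library that stood apart 10 were higher and 7 lower, where 34.1% of all tested genes were called. These comparisons share the untreated and treated libraries of each line with those above.

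The 7 with a higher response were all without a called fall in ATG7 KO cells. STAT2 fell by 1.24 in WT cells and had -0.35 ± 0.15 in ATG7 KO cells, at 6.15, 7.59 and 7.60 FPKM before and 5.84, 4.58 and 6.33 FPKM after treatment, and the difference of the responses was 0.89 ± 0.18 (edgeR adjusted p = 0.0032). Without replicate 1 the value of STAT2 in ATG7 KO cells was -0.45 and was called. SAMD9 had -1.12 in WT and -0.08 ± 0.14 in ATG7 KO cells, a difference of 1.04 ± 0.17 (edgeR adjusted p = 0.00095). Its value in ATG7 KO cells was -0.21 without replicate 1, a fall that was called. IFI44L had -1.64 in WT and -0.06 ± 0.10 in ATG7 KO cells, a difference of 1.58 ± 0.25 (edgeR adjusted p = 0.00089), and PARP9 had -1.13 and -0.21 ± 0.11, a difference of 0.92 ± 0.14. EIF2AK2 had a difference of 0.92 ± 0.20, DTX3L of 0.81 ± 0.18 and IRF2 of 0.64 ± 0.11.

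IRF1 had the smallest adjusted p among members with a lower response. Its rise was smaller in ATG7 KO cells by 1.31 on the log2 scale (-1.31 ± 0.12, edgeR adjusted p = 3.0e-05, -1.28 without replicate 1). ISG20 (-2.07 ± 0.46), OASL (-4.18 ± 0.59) and IRF3 (-0.85 ± 0.18) followed, and each of these had a higher mean in untreated ATG7 KO than in untreated WT cells. IRF1 did too, at 3.74 against 2.79 FPKM without overlap. That untreated difference was not called with all libraries, and it ranged from 0.32 to 0.53 (log2) over the alternatives. Of the 6 members called in both lines IRF1 passed the test of the difference, and IFIT1, IFIT3, OAS2, USP18 and IFIH1 did not. ISG15 did not pass it either.

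The rest of the interferon pathway was read from lists of genes around the family. Of 10 receptor and JAK-STAT genes 5 were higher and 2 lower in treated ATG7 KO than in treated WT cells, where 55.6% of all tested genes were called, and in WT cells H2O2 raised 2 and lowered 4, where 61.0% were called. Both counts are near these shares. IFNGR1, the ligand-binding chain of the interferon gamma receptor, rose in WT cells from 14.0, 14.5 and 15.6 FPKM to 31.2, 31.8 and 33.4 FPKM (1.12 ± 0.06). TYK2, the kinase bound to the interferon receptor, was lower in ATG7 KO cells in both conditions (-0.75 ± 0.13 untreated, -0.54 ± 0.05 treated), and the untreated call was lost under 6 alternatives.

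Genes for nucleic acid sensing and interferon induction numbered 13, of which 12 were tested and 8 were higher and 3 lower in treated ATG7 KO cells (55.6% of all tested genes called). With H2O2 7 of them rose and 1 fell in WT cells (61.0% of all called), and 6 rose and 1 fell in ATG7 KO cells (26.0% of all called). TLR4, a cell surface receptor of bacterial lipopolysaccharide, was 12.6-fold higher in treated ATG7 KO cells (3.65 ± 0.17), at 1.54, 1.22 and 1.51 FPKM against 0.0977, 0.0783 and 0.158 FPKM. It was 9.23-fold higher without treatment. TLR3, the endosomal sensor of double-stranded RNA, rose with H2O2 in WT (1.13 ± 0.16) and in ATG7 KO cells (2.24 ± 0.17). MAVS, the adaptor of RIG-I and MDA5 on mitochondria, was the gene of this list that fell in WT cells, from 20.5, 21.3 and 22.6 FPKM to 7.38, 6.61 and 6.85 FPKM (-1.63 ± 0.05).

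Of 6 feedback inhibitors 3 rose and 2 fell with H2O2 in WT cells, where 61.0% of all tested genes were called, and 2 of 5 tested rose in ATG7 KO cells, where 26.0% were called. SOCS1, which blocks JAK kinases, had 19, 19 and 12 reads in untreated WT and 221, 205 and 205 reads in treated WT cells (3.76 ± 0.19), and 1.49 ± 0.21 in ATG7 KO cells. SOCS3 rose by 1.58 ± 0.06 in WT and 1.25 ± 0.11 in ATG7 KO cells. In treated cells 2 of the 6 were higher in the KO line and 3 were lower, with the phosphatase PTPN11 among the higher (0.46 ± 0.03). Of all tested genes 55.6% were called in that comparison.

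Of 20 further interferon-stimulated genes outside the set 18 were tested. After H2O2 6 were higher and 8 lower in WT cells, where 30.9% of all tested genes were higher and 30.1% lower, and 5 were higher and 4 lower in ATG7 KO cells, where 13.6% and 12.4% were. TRIM22, an antiviral ubiquitin ligase, rose 6.73-fold in WT cells, from 2.53, 1.94 and 2.19 FPKM to 14.1, 15.4 and 15.4 FPKM, and 20.3-fold in ATG7 KO cells, from 1.73, 1.54 and 1.65 FPKM to 34.0, 32.5 and 33.9 FPKM. GBP2, a guanylate-binding GTPase, fell in WT (-1.64 ± 0.11) and in ATG7 KO cells (-2.62 ± 0.15). UBA7, the enzyme that activates ISG15 for conjugation, fell in both lines as well (-1.09 ± 0.16 and -1.91 ± 0.16), whereas ISG15 itself rose in WT cells.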

How the data were processed

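Trizol-extracted RNA was made into NEBNext Ultra libraries, 3 for each of 4 groups of HLE-B3 cells. The deposited counts are whole reads per gene, not normalized. FPKM as deposited divides these counts by gene length and library size. The submitters' processing notes name HISAT2 2.0.5, featureCounts 1.5.0-p3 and GRCh38, while strand and multi-mapping settings are not given in the sources used here. Related genes, overlapping genes and antisense partners may therefore share reads.

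Counts were analysed with edgeR 4.0.16 in R 4.3.3, with filterByExpr (minimum count 10), TMM scaling, a robust quasi-likelihood fit on the 6 libraries of each comparison and Benjamini-Hochberg adjustment over all tested genes. The difference of responses was an interaction in all 12 libraries. FPKM served for levels. The script was tested on simulated data for the comparison of the treated lines and for the difference of responses. No simulated library stood apart, so this cannot speak to results that hinge on untreated ATG7 KO replicate 1. Alternatives were DESeq2 1.42.0, limma 3.58.1 on log2 FPKM, other scaling, no filter, a length correction, a shared fit and leaving out each library.

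The members and lists were chosen with earlier results of these data known. Library values are given for up to 6 members a comparison with the largest called change and a mean above 1 FPKM in a group, and for others of their families. Up to 3 genes were named from each further list by the same rule. Those beyond it (OASL, OAS2, OAS3, IFITM1, ISG20, IFI6 and IRF9 among the members) were chosen after their values were seen. For the receptor list, a gene named by this rule is not reported here. Same-numbered libraries did not deviate together (correlations from -0.043 to 0.098), so numbers were not treated as pairs.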

Additional observations from a re-analysis of the deposited data

Results flagged for a closer look

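Responses to H2O2 that differed between ATG7 KO and WT cells by the edgeR test of the difference itself were looked at again for 11 members, in log2 units as ATG7 KO minus WT. Higher responses were found for IFI44L (1.58), SAMD9 (1.04), PARP9 (0.92), EIF2AK2 (0.92), STAT2 (0.89), DTX3L (0.81) and IRF2 (0.64). Lower responses were found for OASL (-4.18), ISG20 (-2.07), IRF1 (-1.31) and IRF3 (-0.85). OASL and ISG20 had means below 1 FPKM in every group. Of the 11 differences, 5 (IRF1, IRF2, OASL, PARP9 and SAMD9) passed the test under every alternative that was run, and the other 6 lost it under at least 1 of them. ISG20 lost it under 11 alternatives, DTX3L and EIF2AK2 under 8 each, IRF3 under 7, STAT2 under 5 and IFI44L under 1.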

How the results depend on the processing

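With 3 libraries a group, counts of called members in comparisons that use untreated ATG7 KO cells moved most. Without H2O2, 7 members differed between the lines, against 13 with DESeq2, 13 in a fit of all 12 libraries, 4 with limma on log2(FPKM + 0.1) and 16 at an adjusted p below 0.05, and from 2 to 20 when 1 library was left out, with 20 reached without ATG7 KO replicate 1. The H2O2 response of ATG7 KO cells went from 10 to 16 members at an adjusted p below 0.05 and from 3 to 19 when 1 library was left out, again with 19 reached without untreated replicate 1. The difference of responses went from 11 to between 6 and 17. In treated cells the 22 members became 14 in a fit of all 12 libraries. With a replicate block the count was 3 without H2O2 and 4 for the response of ATG7 KO cells, and the numbers share only a label. IFITM3 in WT cells with H2O2 turned from 0.19 to -0.023 (log2) under the length correction. In ATG7 KO cells SAMD9 ranged from -0.21 to 0.0094 and IFI6 from -0.59 to 0.14 when 1 library was left out, turning sign without untreated replicate 3 and replicate 1, respectively. The cause was not tested. Under every alternative 13 of 22 calls in treated cells, 2 of 7 without H2O2, 14 of 19 for the WT response and 3 of 10 for the ATG7 KO response held. Genes with few reads, such as IFNB1, OAS1 and RSAD2, could not be tested at this depth.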
